A study of Mus musculus with 10 samples.

Results

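The collagen and laminin chain genes of the mouse were followed in ribosome-bound RNA from brain tissue labelled S1DZ, in the primary somatosensory cortex. They were taken by symbol, as protein-coding genes named Col with a type and an alpha-chain number or Lam with a chain letter and number. This gave 55 genes of the 55536 in the count table, 44 of them collagens and 11 laminins. The study used translating ribosome affinity purification (TRAP), in which tagged ribosomes are pulled out of a tissue lysate and the RNA on them is sequenced. An adeno-associated virus, AAV5-EF1α-Flex-EGFPL10a, was injected into the cortex at 400 nl per side, and 4 weeks later ribosomes carrying GFP-L10a were captured with antibodies to GFP. The virus needs Cre recombinase, so the design aims at cells of the injected area in which the driver gene was active and the virus worked. RNA carried along from other cells in the pull-down was not measured here. Mice carried Cre under Il-17ra, Il-17rb or Il-17rc, receptor subunits of the interleukin-17 family, and all groups received the same virus. There were 3 libraries from Il-17ra-Cre, 3 from Il-17rb-Cre and 4 from Il-17rc-Cre mice. The labels name the tissue and the driver but no cell type or age, and do not say whether replicates came from separate animals, which limits each p-value to the variation among these particular libraries, possibly technical. The comparisons ask which chain genes differ between the cells marked by each driver.

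Collagens are triple helices of alpha chains, and each gene encodes 1 such chain. Fibrillar collagens build the fibres of connective tissue, the FACIT collagens sit on those fibres, and collagen IV forms the mesh of basement membranes. Laminins are heterotrimers of an alpha, a beta and a gamma chain that polymerise into the other mesh of the basement membrane, which binds cells through integrins and dystroglycan. In the brain, basement membranes surround blood vessels and lie under the meninges, and are made by endothelial cells, mural cells, fibroblasts and astrocytes.

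Total counts ran from 39692925 to 165844244 per library. The deepest was Il-17ra-Cre replicate 3, against 42642810 and 39692925 in replicates 1 and 2 of its line. The Il-17ra-Cre replicate 3 stood apart from replicates 1 and 2 of its line, with a correlation of log2 CPM of 0.948 and 0.955 to them against 0.982 between them. Among Il-17rc-Cre libraries, replicates 1 and 3 resembled each other (0.992) more than replicates 2 and 4 (0.972 to 0.978 against either). The driver transcripts did not all follow the labels. Il17rc was at 28.3 ± 8.37 CPM in Il-17rc-Cre libraries, 29.4 ± 10.4 in Il-17ra-Cre and 1.89 ± 1.15 in Il-17rb-Cre (mean ± SD), while Il17ra was at 18.5 ± 2.53, 26.5 ± 7.31 and 18.8 ± 2.97 CPM and Il17rb at 2.26 ± 1.31, 0.714 ± 0.138 and 1.27 ± 1.13 CPM in libraries labelled Il-17ra-Cre, Il-17rb-Cre and Il-17rc-Cre. Neither Il17ra nor Il17rb passed a test between lines, so the groups are named by their labels.

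Collagen and laminin genes together took the smallest share of the reads in the Il-17rb-Cre libraries. Their summed level was 253, 335 and 140.1 CPM (read counts scaled to the library total, with TMM factors) in Il-17ra-Cre replicates 1 to 3, 69.4, 88.8 and 70.1 CPM in Il-17rb-Cre replicates 1 to 3 and 198, 355, 199.8 and 195 CPM in Il-17rc-Cre replicates 1 to 4. Each Il-17rb-Cre library lay below every library of the other lines, and Il-17ra-Cre replicate 3 was the lowest of those. Of the 55 genes, 51 had enough reads to be tested. Col10a1 (network-forming, of growth cartilage), Col14a1 (a FACIT chain), Col17a1 (of hemidesmosomes) and Col24a1 (fibrillar) were left out by the filter on low counts, and none of them exceeded 0.920 CPM in any library. Of the 51 genes, 6 had no Il-17rb-Cre library above the filter's cutoff of 0.149 CPM and so were tested only because of other lines, and 26 had all 3 above it. In such bulk samples, fewer cells of a type and less RNA per cell cannot be told apart.

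**Figure D1:**
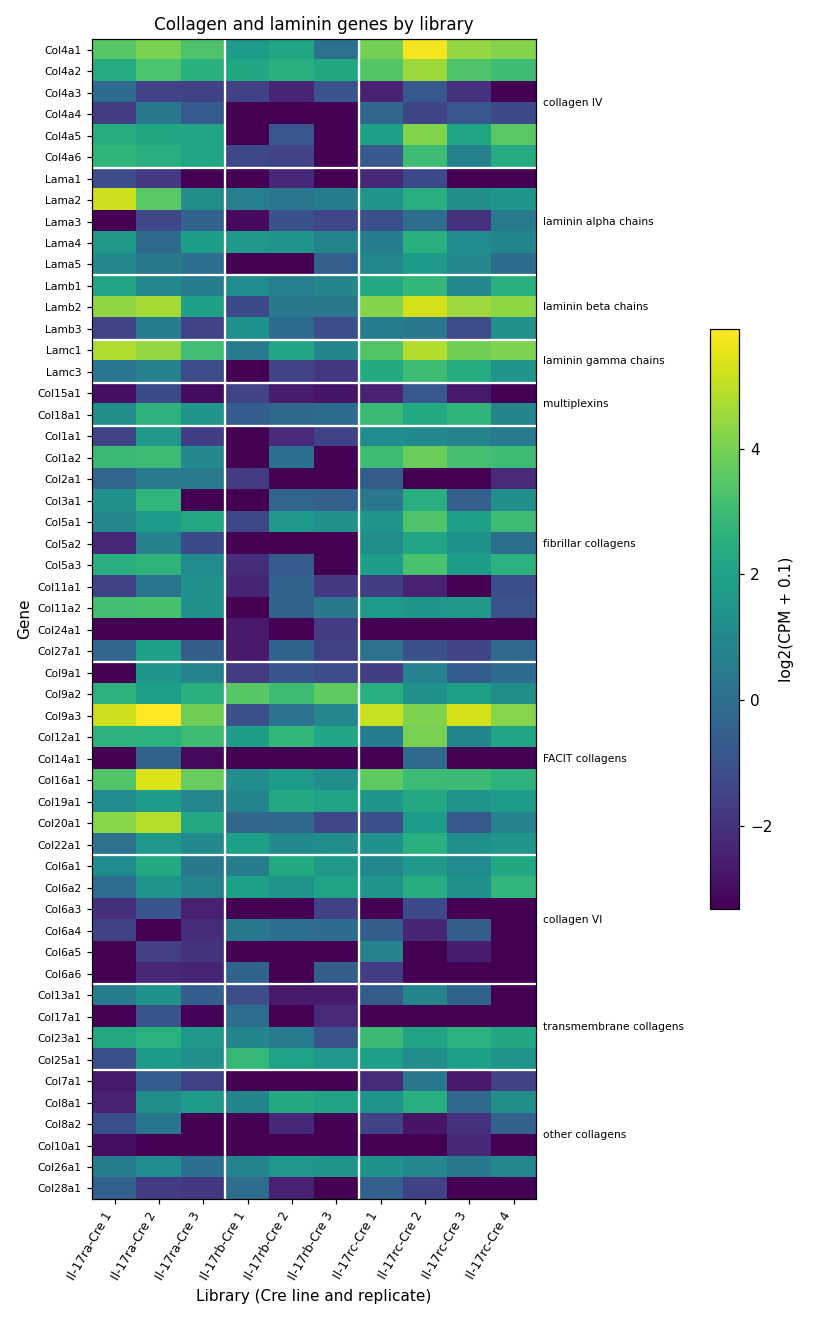
Level of 54 of the 55 genes (one line each, grouped by class) in each of the 10 libraries, as log2(CPM + 0.1). The Il-17rb-Cre columns are dark for most collagen IV, laminin and fibrillar genes and bright for Col9a2, while Col9a3 is among the brightest in the other lines.

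In Il-17rb-Cre libraries, 18 of the 51 genes were lower and 1 was higher than in Il-17ra-Cre libraries (edgeR quasi-likelihood test, adjusted p below 0.05). Of all 20301 genes tested in this comparison, 24.4% were lower and 16.4% higher. The median log2 fold change was -2.15 over the 51 genes and -0.09 over all genes. Against Il-17rc-Cre libraries, again 18 of 51 were lower and 1 higher, where 21.9% of all genes were lower and 17.7% higher, with medians of -1.43 and 0.02. Both comparisons use the same Il-17rb-Cre libraries, so they are not independent of each other. The gene that was higher in each was Col9a2. The lower genes in both comparisons included Col4a4, Col5a2 and Col7a1. These had no Il-17rb-Cre library above the filter's cutoff, so they were tested only because of other lines and could not come out higher. Setting genes without a count in the Il-17rb-Cre libraries at their bound, as described for Col4a4, left both medians of the chain genes as given.

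**Figure D2:**
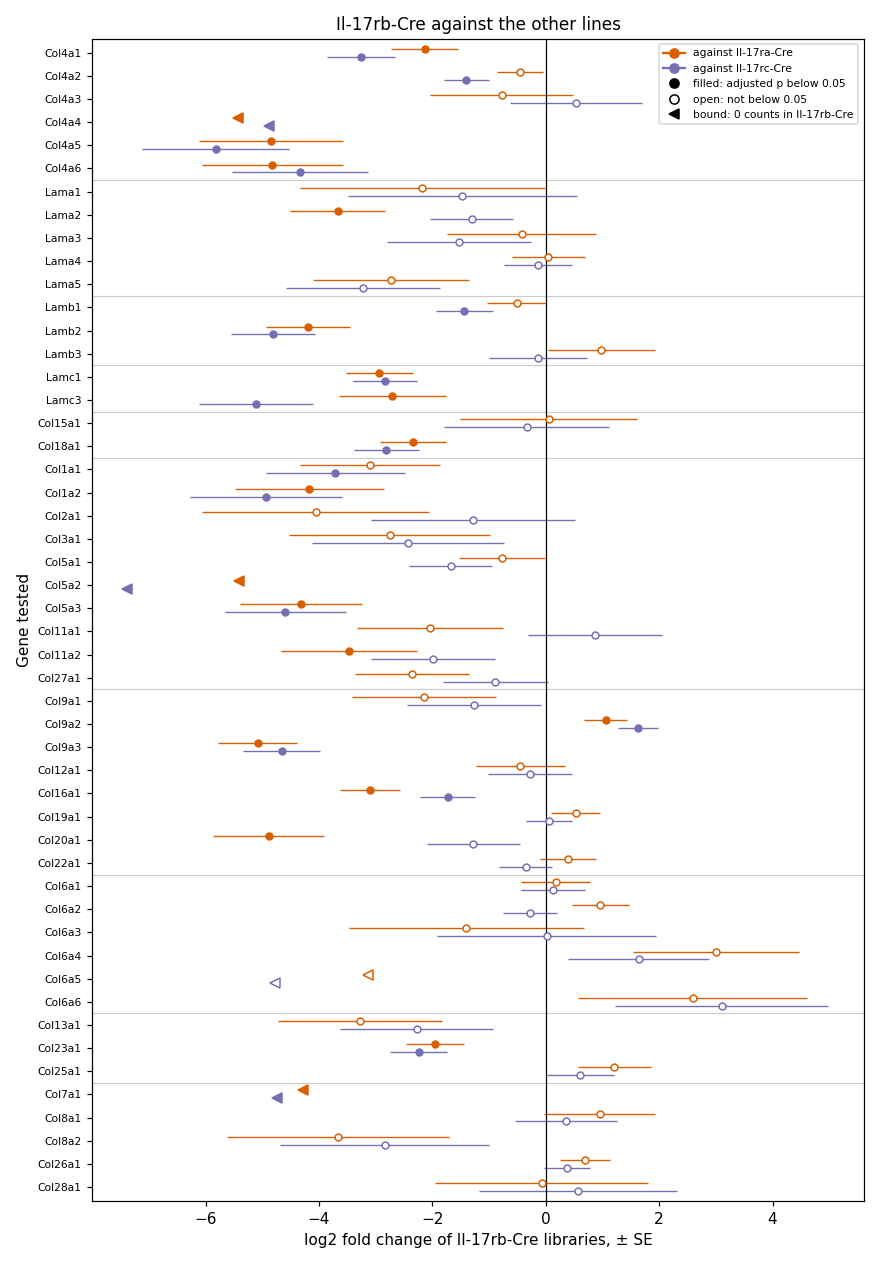
The log2 fold change of Il-17rb-Cre libraries against Il-17ra-Cre (orange) and Il-17rc-Cre (purple) for 50 of the 51 genes tested, by class. Bars are approximate standard errors, worked back from the F statistic. Filled symbols passed an adjusted p of 0.05, and triangles are bounds for genes with 0 counts in the Il-17rb-Cre libraries. Filled symbols lie left of 0 for 18 genes in each comparison and right of 0 for Col9a2.

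Summed levels of markers of cells that make basement membrane were also lowest in the Il-17rb-Cre libraries. Between Il-17ra-Cre and Il-17rc-Cre the mural sums did not overlap, whereas the sums of the chain genes did. For the counts of markers, 24.4% of all genes were lower against Il-17ra-Cre and 21.9% against Il-17rc-Cre. The 10 mural cell markers summed to 78.02 to 98.7 CPM in Il-17ra-Cre, 3.003 to 7.09 in Il-17rb-Cre and 261 to 583 in Il-17rc-Cre libraries, and 9 and 10 of them were lower in Il-17rb-Cre against each line. Rgs5, a pericyte regulator of G-protein signalling, was at 1.78, 3.804 and 2.301 CPM in Il-17rb-Cre replicates 1 to 3, 42.7, 42.6 and 34.2 in Il-17ra-Cre and 173, 289, 147 and 104 in Il-17rc-Cre. Higd1b, another pericyte transcript, was at 0.391 ± 0.0664, 13.2 ± 4.61 and 84.6 ± 26.6 CPM in the same order of lines. The 11 endothelial markers summed to 86.4 to 488, 16.99 to 23.6 and 127 to 296 CPM in Il-17ra-Cre, Il-17rb-Cre and Il-17rc-Cre, with 5 and 8 lower in Il-17rb-Cre. Within that list Ly6c1, a surface protein of endothelium, was at 0.718 ± 0.569 CPM in Il-17rb-Cre and 203 ± 158 in Il-17ra-Cre, and Slc2a1, the glucose transporter of the blood-brain barrier, at 15.9 ± 0.668 and 73.1 ± 30.8. The 10 fibroblast and leptomeningeal markers summed to 29.8 to 39.5, 4.69 to 10.98 and 30.8 to 36.97 CPM, with 5 and 6 of the 8 tested lower. Of the 10, Ogn, Igf2 and Aldh1a2 had 0 counts in every Il-17rb-Cre library, as did the mural marker Anpep. Crabp2, a retinoic acid binding protein, was at 0.201 ± 0.0747 CPM in Il-17rb-Cre and 13.7 ± 13.3 in Il-17ra-Cre, whereas Islr did not pass either test (edgeR adjusted p = 0.155 and 0.0839).

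Astrocyte markers were lower in the Il-17rb-Cre libraries in both comparisons, and excitatory neuron markers were higher in both. For the counts below, 24.4% and 21.9% of all genes were lower and 16.4% and 17.7% higher against Il-17ra-Cre and Il-17rc-Cre. All 10 astrocyte markers were lower in Il-17rb-Cre in both comparisons, with sums of 6472 to 11129, 373 to 399.9 and 10072 to 11868 CPM in Il-17ra-Cre, Il-17rb-Cre and Il-17rc-Cre. Gfap, the astrocyte filament protein, was at 6790 ± 1710, 161 ± 20.1 and 6599 ± 833 CPM, and Slc1a3, a glutamate transporter, at 770.3 ± 385, 21.8 ± 4.33 and 1222 ± 171. Oligodendrocyte markers summed to 5397 to 45223, 1022 to 1181 and 1047 to 4002 CPM, with 10 of 10 and 1 of 10 lower in Il-17rb-Cre. The Il-17rb-Cre and Il-17rc-Cre oligodendrocyte sums overlapped. In Il-17ra-Cre, 9 of 10 were higher than in Il-17rc-Cre, where 1.38% of all genes were higher and 0.798% lower. In that comparison 4 of 10 microglia markers were also higher. Lower there were 3 of 10 mural, 1 of 10 astrocyte and 1 of 8 inhibitory neuron markers. These calls are lost, as no gene of the table was called, without Il-17ra-Cre replicate 1 or 2 or Il-17rc-Cre replicate 3. The higher calls are also lost with either replicate block and in the fit of these 2 lines alone. Myelin transcripts such as Mbp and Cnp were at 12733 ± 10063 and 4732 ± 3358 CPM in Il-17ra-Cre and 527 ± 14.01 and 174 ± 19.8 in Il-17rb-Cre. Oligodendrocyte precursor markers summed to 133 to 353, 10.2 to 16.8 and 131 to 209 CPM, with 5 and 4 of 6 lower, among them Olig2 (edgeR adjusted p = 3.12e-05 and 5.78e-05) and Cspg4 (0.00339 and 0.004601). Microglia markers summed to 365 to 607, 18.1 to 22.4 and 30.2 to 120.0 CPM, with 10 and 5 of 10 lower, Itgam at 0 counts in every Il-17rb-Cre library, and C1qa, a complement subunit, at 3.81 ± 0.992 CPM there. All 8 excitatory neuron markers were higher in Il-17rb-Cre in both comparisons, with sums of 1580 to 6706, 17901 to 20938 and 2203 to 3626 CPM. Nrgn and Slc17a7 were at 15739 ± 2109 and 1892 ± 420.2 CPM in Il-17rb-Cre. The 8 inhibitory neuron markers summed to 221 to 387, 1339 to 1381 and 584 to 734 CPM, with 5 and 3 higher and 0 and 1 lower, and Sst and Npy were higher in both (edgeR adjusted p = 7.16e-05 and 4.45e-04, 5.11e-04 and 0.00301). The part of these cell types in the collagen and laminin differences was not tested.

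**Figure D3:**
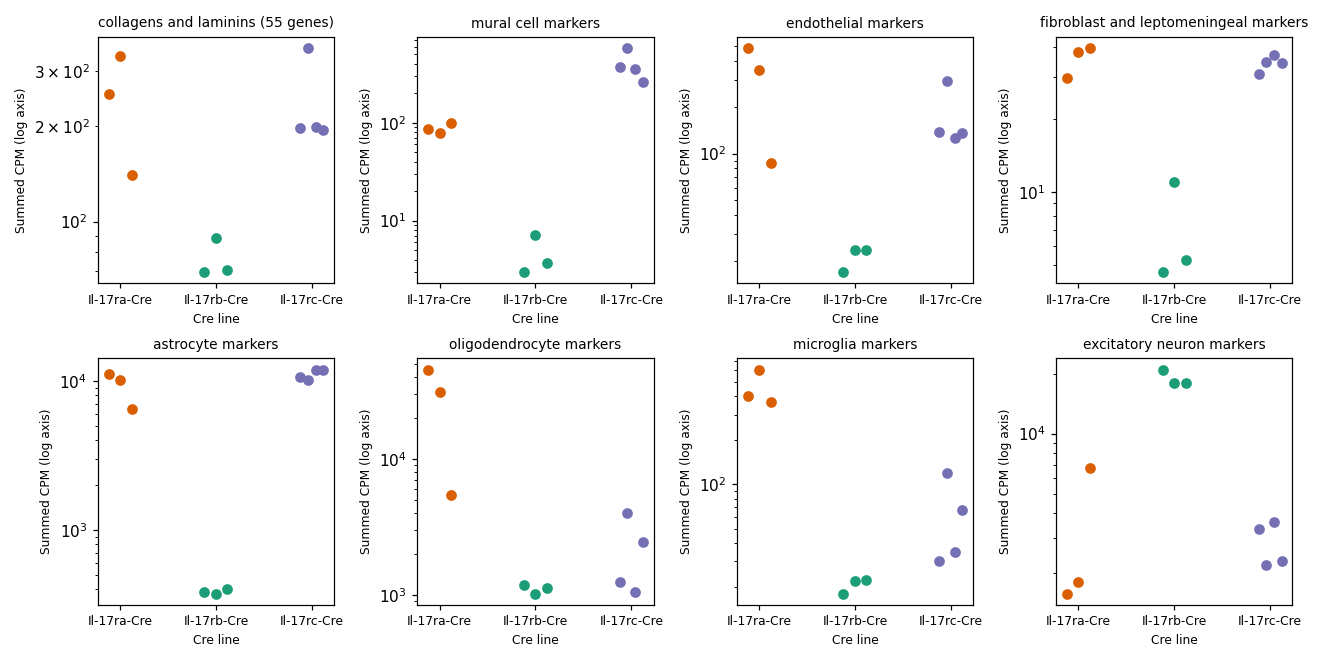
Summed CPM (log axis) of the 55 collagen and laminin genes and of 7 marker lists in each library, by Cre line. Each point is 1 library, and the Il-17rb-Cre points are the lowest in the panels for the chain genes and for mural, endothelial, fibroblast, astrocyte and microglia markers, and the highest for excitatory neuron markers.

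Collagen IV, the collagen of basement membranes, was lower in the Il-17rb-Cre libraries in 4 of its 6 genes against Il-17ra-Cre and in 5 of 6 against Il-17rc-Cre, with median log2 fold changes of -3.48 and -3.79. Over all genes, 24.4% and 21.9% were lower. Col4a1 (ENSMUSG00000031502, chr8:11198423-11312826, GRCm38), whose chain joins that of Col4a2 in the widespread collagen IV trimer, was at 11.2, 16.3 and 9.86 CPM in Il-17ra-Cre replicates 1 to 3, 3.25, 4.22 and 1.01 in Il-17rb-Cre replicates 1 to 3 and 15.6, 53.3, 21.02 and 18.2 in Il-17rc-Cre replicates 1 to 4. Every Il-17rb-Cre library was below every other, and Il-17rc-Cre replicate 2 was far above the rest of its line. The log2 fold change was -2.14 ± 0.59 against Il-17ra-Cre (approximate SE, edgeR adjusted p = 0.01501) and -3.26 ± 0.59 against Il-17rc-Cre (0.00182). Each such SE was worked back from the F statistic, as the test reports none. Its partner Col4a2 (ENSMUSG00000031503, chr8:11312805-11449287) was at 5.04, 9.61 and 5.63 CPM in Il-17ra-Cre, 4.52, 5.67 and 4.56 in Il-17rb-Cre and 10.7, 22.9, 10.1 and 8.14 in Il-17rc-Cre. The Il-17rb-Cre and Il-17ra-Cre libraries overlapped in Col4a2, and all Il-17rc-Cre libraries lay above both the Il-17rb-Cre libraries and 2 of the Il-17ra-Cre libraries. The log2 fold change of Col4a2 was -0.46 ± 0.40 against Il-17ra-Cre (edgeR adjusted p = 0.399) and -1.40 ± 0.39 against Il-17rc-Cre (0.0174). Without Il-17rb-Cre replicate 1 or 3 the latter did not pass (0.0529 and 0.0524). Col4a1 and Col4a2 start head to head on chromosome 8 with overlapping first exons, and without strand 0.29% and 0.98% of their exon lengths are shared with other genes.

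The other 4 collagen IV genes form 2 more head-to-head pairs, and they were near the limit of detection in the Il-17rb-Cre libraries. Col4a5 (ENSMUSG00000031274, chrX:141475385-141689234), a chain of glomerular and other specialised basement membranes, was at 5.26, 4.54 and 4.32 CPM in Il-17ra-Cre, 0, 0.467 and 0 in Il-17rb-Cre and 3.601, 17.7, 4.16 and 11.7 in Il-17rc-Cre. Its neighbour Col4a6 (ENSMUSG00000031273, chrX:141165403-141474076), which shares a trimer with Col4a5, was at 6.497, 5.36 and 4.23 CPM in Il-17ra-Cre, 0.3003, 0.267 and 0 in Il-17rb-Cre and 0.494, 8.204, 1.52 and 4.99 in Il-17rc-Cre. In both genes every Il-17rb-Cre library was below every other library. On the log2 scale, Col4a5 differed by -4.84 ± 1.27 from Il-17ra-Cre (edgeR adjusted p = 0.0123) and -5.82 ± 1.30 from Il-17rc-Cre (0.00559), and Col4a6 by -4.83 ± 1.24 (0.0112) and -4.33 ± 1.19 (0.01603). All 35 Col4a5 reads of the line came from Il-17rb-Cre replicate 2, and without it the fitted values of Col4a5 were -11.36 and -12.38, which depend on the prior count. Without Il-17rc-Cre replicate 2 the value of Col4a6 against that line was -3.63 (0.0349). Bases before the RefSeq starts of this pair are shown because its members lie back to back and were both lower. Annotated exon bases next to a start were left out, so the Col4a5 stretch ends where its annotated gene begins. The GC box GGGCGG, the CCAAT box CCAAT and the TATA box TATAAA were searched on both strands, with matches in capitals, so a GC box on the opposite strand reads CCGCCC.
Col4a5, chrX:141475169-141475384, plus strand: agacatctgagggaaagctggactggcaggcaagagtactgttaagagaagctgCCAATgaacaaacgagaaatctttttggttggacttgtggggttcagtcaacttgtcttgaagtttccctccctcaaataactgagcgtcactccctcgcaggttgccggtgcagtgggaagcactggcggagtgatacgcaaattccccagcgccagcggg
Col4a6, chrX:141474077-141474326, minus strand: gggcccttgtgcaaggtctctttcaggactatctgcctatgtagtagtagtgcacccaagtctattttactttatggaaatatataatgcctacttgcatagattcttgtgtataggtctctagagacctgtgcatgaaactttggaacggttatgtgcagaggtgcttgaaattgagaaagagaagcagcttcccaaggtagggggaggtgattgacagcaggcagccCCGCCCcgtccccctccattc
The stretch before Col4a5 held 1 CCAAT box and that before Col4a6 held 1 GC box, and no base belonged to 2 motifs.

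Col4a4 (ENSMUSG00000067158, chr1:82448423-82586849), of the collagen IV trimer of the glomerulus, had 0 counts in all 3 Il-17rb-Cre libraries. It was at 0.216, 1.19 and 0.539 CPM in Il-17ra-Cre and 0.7202, 0.277, 0.467 and 0.312 in Il-17rc-Cre. Taking a floor of 3 counts over the group, it was at least 42.9-fold lower than in Il-17ra-Cre (edgeR adjusted p = 0.00126) and at least 29.3-fold lower than in Il-17rc-Cre (0.00155). Without Il-17ra-Cre replicate 2 the first bound was 24.9-fold. The other lines had 145 and 112 reads of it in all, so its level was low everywhere. Col4a3 (ENSMUSG00000079465, chr1:82586921-82722059), the partner chain, was at 0.836, 0.265 and 0.252 CPM in Il-17ra-Cre, 0.244, 0.0934 and 0.443 in Il-17rb-Cre and 0.0823, 0.484, 0.147 and 0 in Il-17rc-Cre, with all lines overlapping, and passed neither test (edgeR adjusted p = 0.656 and 0.748). The 71 bases between the 2 starts, read from the Col4a4 strand, are shown because they divide the gene that was not detected from the one that was.
Col4a4, chr1:82586850-82586920, minus strand: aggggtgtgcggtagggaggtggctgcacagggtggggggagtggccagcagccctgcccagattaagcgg
None of the 3 motifs was found in it, and its GC content was 69%.

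**Figure D4:**
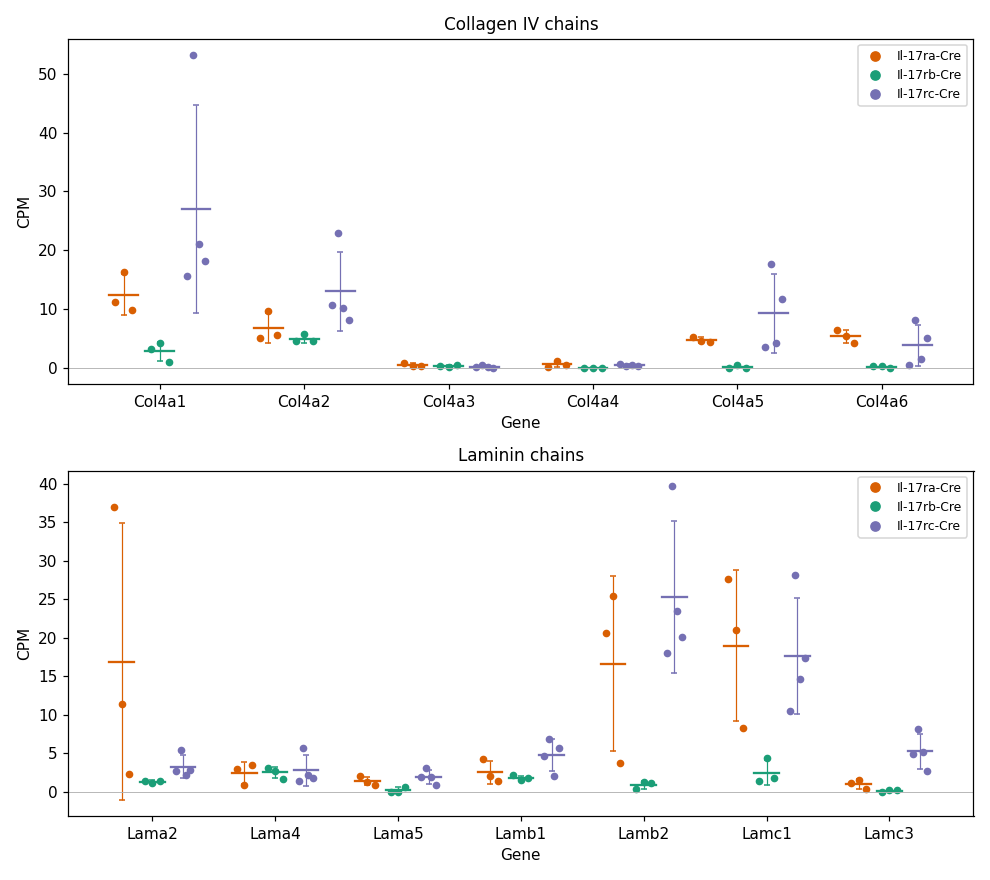
CPM of collagen IV genes (top) and of a chosen set of laminin genes (bottom) in each library, with the mean of each line as a bar and the SD as a whisker. In Col4a1, Col4a4, Col4a5, Col4a6, Lama2, Lama5, Lamb2, Lamc1 and Lamc3 the 3 Il-17rb-Cre points lie below all other points. In Col4a2, Col4a3, Lama4 and Lamb1 they overlap with those of Il-17ra-Cre. Lama1, Lama3 and Lamb3, in which the lines overlapped, are among those not drawn. The share of all genes separated in this way was not counted.

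Of the 11 laminin genes, 4 were lower in Il-17rb-Cre than in Il-17ra-Cre and 4 were lower than in Il-17rc-Cre, and none was higher. The shares over all genes were 24.4% and 21.9% lower and 16.4% and 17.7% higher. Among beta chains, Lamb1 was called lower against Il-17rc-Cre only. The beta chain gene lower in both comparisons was Lamb2 (ENSMUSG00000052911, chr9:108479736-108490530), of vascular and synaptic laminins. It was at 20.6, 25.4 and 3.76 CPM in Il-17ra-Cre replicates 1 to 3, 0.319, 1.201 and 1.16 in Il-17rb-Cre and 18.02, 39.7, 23.4 and 20.1 in Il-17rc-Cre replicates 1 to 4. The groups did not overlap between Il-17rb-Cre and either line, and Il-17ra-Cre replicate 3 was the lowest of the others. Its log2 fold change was -4.20 ± 0.74 against Il-17ra-Cre (edgeR adjusted p = 0.00157) and -4.81 ± 0.75 against Il-17rc-Cre (7.25e-04). Lamb1 (ENSMUSG00000002900, chr12:31265234-31329644), the widespread beta chain, was at 4.23, 1.99 and 1.39 CPM in Il-17ra-Cre, 2.12, 1.47 and 1.73 in Il-17rb-Cre and 4.61, 6.83, 2.002 and 5.71 in Il-17rc-Cre. Its Il-17rb-Cre libraries lay within the range of Il-17ra-Cre (log2 fold change -0.51 ± 0.52, edgeR adjusted p = 0.467). Against Il-17rc-Cre, with which it also overlapped, its value was -1.43 ± 0.50 (0.0449), a call lost without any of 7 libraries, with adjusted p from 0.0503 without Il-17ra-Cre replicate 2 to 0.127 without Il-17rb-Cre replicate 2 (the others were Il-17rb-Cre replicates 1 and 3 and Il-17rc-Cre replicates 1, 2 and 4). Lamb3, a chain of epithelial laminin, was at 0.2696, 1.35 and 0.263 CPM in Il-17ra-Cre, 2.496, 0.841 and 0.357 in Il-17rb-Cre and 1.42, 1.204, 0.347 and 2.41 in Il-17rc-Cre, and the lines overlapped (edgeR adjusted p = 0.436 and 0.921).

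Lamc1 (ENSMUSG00000026478, chr1:153218922-153332786), the gamma chain of most laminins, was lower in Il-17rb-Cre in both comparisons. It was at 27.6, 20.99 and 8.297 CPM in Il-17ra-Cre, 1.33, 4.32 and 1.73 in Il-17rb-Cre and 10.5, 28.2, 14.7 and 17.3 in Il-17rc-Cre, with no overlap between Il-17rb-Cre and the others. The log2 fold change was -2.94 ± 0.59 (edgeR adjusted p = 0.00308) and -2.84 ± 0.57 (0.003103), and -3.63 and -3.58 without Il-17rb-Cre replicate 2, the highest of its line. Lamc3 (ENSMUSG00000026840, chr2:31887291-31946539), a gamma chain tied to cortical development, was at 1.13, 1.54 and 0.328 CPM in Il-17ra-Cre, 0, 0.267 and 0.172 in Il-17rb-Cre and 4.88, 8.18, 5.16 and 2.69 in Il-17rc-Cre. Here the Il-17rc-Cre libraries were all above the Il-17ra-Cre libraries, and these above all Il-17rb-Cre libraries. Its log2 fold change against Il-17rc-Cre was -5.11 ± 1.01 (edgeR adjusted p = 0.00291), or -5.88 without Il-17rb-Cre replicate 2. Against Il-17ra-Cre it was -2.70 ± 0.95 (0.0432), a call lost without any of 7 libraries, with adjusted p from 0.0527 without Il-17rb-Cre replicate 1 to 0.123 without Il-17ra-Cre replicate 2 (the others were Il-17ra-Cre replicate 1, Il-17rb-Cre replicate 3 and Il-17rc-Cre replicates 1, 2 and 3). Without Il-17rb-Cre replicate 2 its value was -3.42. Of its exon length 6.27% is shared with Gm13441.

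Of the 5 alpha chains, Lama2 (ENSMUSG00000019899, chr10:26980036-27619758), the alpha chain of muscle and of glial and perivascular basement membranes, passed against Il-17ra-Cre. It was at 37.01, 11.4 and 2.27 CPM in Il-17ra-Cre, 1.45, 1.12 and 1.401 in Il-17rb-Cre and 2.67, 5.396, 2.202 and 2.79 in Il-17rc-Cre. The Il-17ra-Cre replicates differed widely, with replicate 3 inside the range of Il-17rc-Cre, and the Il-17rb-Cre libraries lay below all others. In log2 terms the difference was -3.67 ± 0.83 against Il-17ra-Cre (edgeR adjusted p = 0.00586), -2.35 without Il-17ra-Cre replicate 1 (0.01998), and -1.30 ± 0.73 against Il-17rc-Cre (0.184). Lama4, an alpha chain of endothelial basement membranes, was at 2.99, 0.823 and 3.44 CPM in Il-17ra-Cre, 3.097, 2.71 and 1.701 in Il-17rb-Cre and 1.38, 5.71, 2.16 and 1.78 in Il-17rc-Cre. The ranges overlapped in all lines, and the log2 fold changes of 0.04 ± 0.64 and -0.14 ± 0.60 did not pass (edgeR adjusted p = 0.965 and 0.872). Lama5, the other endothelial alpha chain, was at 2.02, 1.22 and 0.925 CPM in Il-17ra-Cre, 0, 0 and 0.615 in Il-17rb-Cre and 1.87, 3.14, 1.92 and 0.8497 in Il-17rc-Cre, with no overlap of Il-17rb-Cre and the others, and did not pass (edgeR adjusted p = 0.139 and 0.0844). The 43 reads of Lama5 in the line were all in Il-17rb-Cre replicate 3. Lama1 and Lama3 were at or below 1.32 CPM in every library and passed neither test.

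Within the collagen IV and laminin families the chains did not differ by the same amount, so the balance between partner chains was compared per length, as CPM per kilobase of merged exons. Col4a1 exceeded Col4a2 in every Il-17ra-Cre library (ratios of 1.96, 1.51 and 1.55) and every Il-17rc-Cre library (1.29, 2.06, 1.84 and 1.98). It was below Col4a2 in every Il-17rb-Cre library (0.637, 0.659 and 0.197). The mean ratios were 1.67 ± 0.251, 0.498 ± 0.2604 and 1.79 ± 0.347 (SD) in Il-17ra-Cre, Il-17rb-Cre and Il-17rc-Cre. The ratio of Lamb2 to Lamb1, chosen after its values were seen, was 7.96, 20.8 and 4.42 in Il-17ra-Cre, 0.245, 1.33 and 1.09 in Il-17rb-Cre and 6.38, 9.46, 19.1 and 5.74 in Il-17rc-Cre. Again no Il-17rb-Cre library overlapped with the others. It was 1 of 5 laminin ratios computed, and in the other 4 the Il-17rb-Cre libraries overlapped with at least 1 line. Lamc1 to Lamb2 was 0.983, 0.606 and 1.62 in Il-17ra-Cre, 3.07, 2.65 and 1.098 in Il-17rb-Cre and 0.429, 0.522, 0.461 and 0.634 in Il-17rc-Cre. Lamc1 to Lamb1 was 7.82, 12.6 and 7.17 in Il-17ra-Cre, 0.753, 3.53 and 1.199 in Il-17rb-Cre and 2.73, 4.94, 8.800 and 3.64 in Il-17rc-Cre. For Lama2 to Lama4 the values were 9.14, 10.3 and 0.487 in Il-17ra-Cre, 0.345, 0.306 and 0.608 in Il-17rb-Cre and 1.43, 0.698, 0.752 and 1.15 in Il-17rc-Cre, and for Lama2 to Lamc1 they were 0.679, 0.276 and 0.138, then 0.549, 0.131 and 0.4101, then 0.129, 0.09698, 0.0759 and 0.0816 in the same order of lines. Of the pairs with few reads, the ratio of Col4a5 to Col4a6 was 0.9603, 1.005 and 1.21 in Il-17ra-Cre and 8.65, 2.56, 3.25 and 2.78 in Il-17rc-Cre, so every Il-17rc-Cre library was above every Il-17ra-Cre library. Only Il-17rb-Cre replicate 2 had reads of both genes, at a ratio of 2.08. The ratio of Col4a4 to Col4a3 ranged from 0.242 to 4.23 in Il-17ra-Cre and was 0 in all Il-17rb-Cre libraries, which had no Col4a4 reads. Col1a2 to Col1a1 ranged from 1.39 to 14.8 in Il-17ra-Cre and from 1.997 to 3.74 in Il-17rc-Cre. Col6a2 to Col6a1 was 0.224, 0.293 and 0.727 in Il-17ra-Cre, 1.45, 0.2803 and 0.702 in Il-17rb-Cre and 0.757, 0.925, 0.5897 and 0.788 in Il-17rc-Cre, with the lines overlapping. With 3 libraries against 3 or 4, a two-sided exact permutation test cannot go below p = 0.1 or 0.0571, so the ratios are given as descriptions. A ratio within a library does not depend on its scaling, but shows only that the 2 genes differed by unequal amounts.

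**Figure D5:**
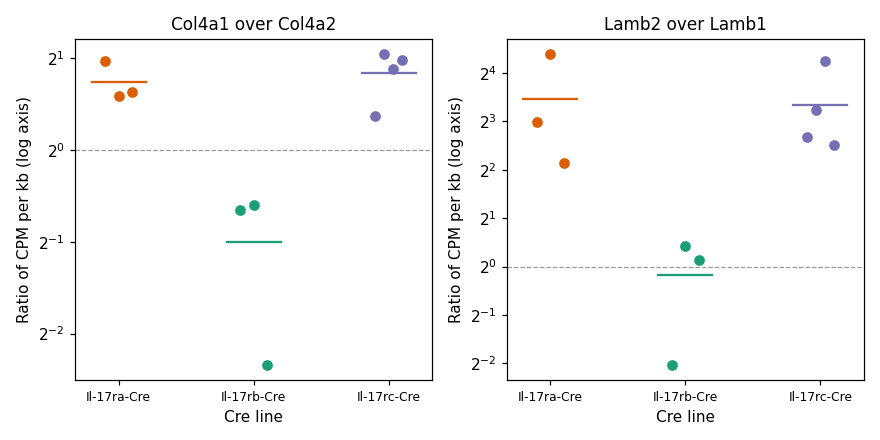
Ratio of CPM per kilobase (log axis) of Col4a1 to Col4a2 and of Lamb2 to Lamb1 in each library, with the mean of each line as a bar and the dashed line at a ratio of 1. The 3 Il-17rb-Cre libraries lie below all libraries of the other lines in both panels.

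Of the 11 fibrillar collagens, 10 were tested, of which 4 were lower in Il-17rb-Cre in each comparison and none was higher. Of all genes, 24.4% and 21.9% were lower against Il-17ra-Cre and Il-17rc-Cre, and 16.4% and 17.7% higher. Col1a2 (ENSMUSG00000029661, chr6:4504814-4541544), a chain of type I collagen, the main fibre of connective tissue, was at 7.55, 7.88 and 1.997 CPM in Il-17ra-Cre, 0, 0.934 and 0 in Il-17rb-Cre and 8.17, 14.2, 8.86 and 8.06 in Il-17rc-Cre. Its reads in the Il-17rb-Cre line came from replicate 2 alone, and no Il-17rb-Cre library overlapped with the others. The log2 fold change was -4.93 ± 1.34 against Il-17rc-Cre (edgeR adjusted p = 0.0148) and -4.17 ± 1.32 against Il-17ra-Cre (0.0286). The latter did not pass without Il-17ra-Cre replicate 1 (0.06202) or 2 (0.0665) or without Il-17rb-Cre replicate 1 (0.0593) or 3 (0.0532), and without Il-17rb-Cre replicate 2, which leaves the line with 0 counts, the fitted values were -11.66 and -12.47. Col1a1, the other chain of type I collagen, was at 0.2696, 2.999 and 0.228 CPM in Il-17ra-Cre, 0, 0.1201 and 0.272 in Il-17rb-Cre and 2.16, 2.01, 1.63 and 1.26 in Il-17rc-Cre. It passed against Il-17rc-Cre alone (-3.71 ± 1.23, edgeR adjusted p = 0.0352), and not without Il-17rb-Cre replicate 1 (0.0672) or 2 (0.104) or Il-17rc-Cre replicate 1 (0.06301), 2 (0.0583) or 3 (0.05404), while its value was -4.82 without Il-17rb-Cre replicate 3. Col2a1 and Col11a1, of cartilage, Col3a1, a partner of type I fibres, and Col27a1 were tested and passed in neither comparison (lowest edgeR adjusted p = 0.0872, for Col27a1 against Il-17ra-Cre).

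The type V chains, which set the width of type I fibres, differed among themselves. Col5a2 (ENSMUSG00000026042, chr1:45374321-45503282) had 0 counts in all Il-17rb-Cre libraries and was at 0.108, 1.51 and 0.316 CPM in Il-17ra-Cre and 2.26, 4.32, 2.54 and 0.949 in Il-17rc-Cre. It was at least 42.6-fold lower than in Il-17ra-Cre (edgeR adjusted p = 0.00408) and at least 166-fold lower than in Il-17rc-Cre (0.00147), by the floor of 3 counts over the group. Without Il-17ra-Cre replicate 2 the first bound was 14.00-fold. Col5a3 (ENSMUSG00000004098, chr9:20770050-20815067) was at 5.42, 6.29 and 2.14 CPM in Il-17ra-Cre, 0.131, 0.547 and 0 in Il-17rb-Cre and 3.52, 9.44, 3.52 and 5.79 in Il-17rc-Cre. No Il-17rb-Cre library overlapped with the others, and the log2 fold changes were -4.32 ± 1.08 (edgeR adjusted p = 0.00956) and -4.59 ± 1.07 (0.00694), or -6.20 and -6.52 without Il-17rb-Cre replicate 2. Col5a1 was at 1.94, 3.24 and 4.62 CPM in Il-17ra-Cre, 0.3003, 2.96 and 2.46 in Il-17rb-Cre and 2.67, 10.1, 3.62 and 8.101 in Il-17rc-Cre, overlapped between all lines and passed neither test (edgeR adjusted p = 0.444 and 0.09599). Its chain is part of most type V trimers. Col11a2, a chain of the cartilage fibril, was at 8.57, 9.15 and 2.45 CPM in Il-17ra-Cre, 0, 0.627 and 1.17 in Il-17rb-Cre and 3.33, 2.84, 3.04 and 0.425 in Il-17rc-Cre. Only the Il-17ra-Cre libraries all lay above the Il-17rb-Cre libraries (-3.47 ± 1.21, edgeR adjusted p = 0.0421), and this call was lost without any of 7 libraries, with adjusted p from 0.05003 without Il-17rb-Cre replicate 3 to 0.1098 without Il-17rb-Cre replicate 2 (the others were Il-17ra-Cre replicates 1 and 2 and Il-17rc-Cre replicates 1, 2 and 3). Without Il-17rb-Cre replicate 3 its value was -4.38. The bases before the start of Col5a3, shown because it was called lower in both comparisons with reads in every line, held 2 GC boxes and 1 CCAAT box.
Col5a3, chr9:20815068-20815317, minus strand: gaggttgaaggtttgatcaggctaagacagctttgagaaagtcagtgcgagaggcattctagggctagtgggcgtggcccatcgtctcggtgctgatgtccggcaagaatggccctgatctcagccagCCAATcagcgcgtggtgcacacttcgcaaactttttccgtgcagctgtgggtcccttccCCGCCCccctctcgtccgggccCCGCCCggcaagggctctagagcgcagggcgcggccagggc

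The FACIT collagens were the class in which genes differed in opposite directions. Of 8 tested, 3 were lower and 1 higher against Il-17ra-Cre, and 2 lower and 1 higher against Il-17rc-Cre. The shares over all genes were 24.4% lower and 16.4% higher in the first comparison and 21.9% and 17.7% in the second. Col9a2 and Col9a3 encode chains that, with Col9a1, form the type IX trimer on cartilage fibrils. Col9a3 (ENSMUSG00000027570, chr2:180597790-180622189) was at 36.5, 59.7 and 14.9 CPM in Il-17ra-Cre, 0.394, 1.03 and 1.83 in Il-17rb-Cre and 35.3, 17.3, 39.6 and 18.4 in Il-17rc-Cre, the highest level of all 55 genes per length in each of the other lines. The Il-17rb-Cre libraries were far below all others, with log2 fold changes of -5.08 ± 0.70 (edgeR adjusted p = 3.88e-04) and -4.66 ± 0.67 (4.67e-04), or -5.68 and -5.32 without Il-17rb-Cre replicate 3. Of its exon length 6.07% overlaps Tcfl5, and without strand the reads of that stretch cannot be assigned to either gene.

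Col9a2 (ENSMUSG00000028626, chr4:121039385-121055322) went the other way. It was at 11.4, 8.21 and 12.4 CPM in Il-17rb-Cre replicates 1 to 3, 5.96, 3.61 and 5.76 in Il-17ra-Cre and 5.45, 2.43, 3.67 and 2.27 in Il-17rc-Cre. All Il-17rb-Cre libraries were above all others, and the line had 2086 reads of it. Its log2 fold change was 1.62 ± 0.35 against Il-17rc-Cre (edgeR adjusted p = 0.00465), where it still passed when any 1 library was left out. Against Il-17ra-Cre it was 1.06 ± 0.38 (0.0472) and did not pass without Il-17ra-Cre replicate 1 (0.07295), 2 (0.1598) or 3 (0.0574), Il-17rb-Cre replicate 1 (0.117), 2 (0.0605) or 3 (0.145), or Il-17rc-Cre replicate 3 (0.0622). Col9a1, the third chain, was at 0, 2.81 and 1.66 CPM in Il-17ra-Cre, 0.206, 0.454 and 0.343 in Il-17rb-Cre and 0.226, 1.605, 0.574 and 0.836 in Il-17rc-Cre and passed neither test (edgeR adjusted p = 0.204 and 0.424). The 69 bases up to the start of Col9a2, shown because it was the gene higher in Il-17rb-Cre, held none of the 3 motifs.
Col9a2, chr4:121039316-121039384, plus strand: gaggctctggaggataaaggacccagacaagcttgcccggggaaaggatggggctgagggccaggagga

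Col16a1 (ENSMUSG00000040690, chr4:130047840-130099283), a FACIT chain of several connective tissues, was at 10.4, 42.1 and 13.4 CPM in Il-17ra-Cre, 2.196, 3.203 and 2.24 in Il-17rb-Cre and 12.1, 7.91, 7.75 and 6.16 in Il-17rc-Cre. The Il-17rb-Cre libraries lay below all others. The log2 fold change was -3.11 ± 0.53 against Il-17ra-Cre (edgeR adjusted p = 0.00124), -2.23 without Il-17ra-Cre replicate 2 (0.001700), and -1.73 ± 0.48 against Il-17rc-Cre (0.0169), which did not pass without Il-17rb-Cre replicate 1 (0.0576) or 3 (0.0561). Col20a1 (ENSMUSG00000016356, chr2:180986535-181018363), another FACIT chain, was at 19.2, 28.9 and 4.68 CPM in Il-17ra-Cre, 0.732, 0.761 and 0.286 in Il-17rb-Cre and 0.3704, 3.22, 0.507 and 1.61 in Il-17rc-Cre. Its Il-17ra-Cre libraries were above all libraries of both other lines, which overlapped with each other. In log2 terms the difference was -4.89 ± 0.98 against Il-17ra-Cre (edgeR adjusted p = 0.00308) and -1.28 ± 0.83 against Il-17rc-Cre (0.248). Col12a1, Col19a1 and Col22a1, the remaining FACIT genes tested, passed in neither comparison.

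Col18a1 (ENSMUSG00000001435, chr10:77052178-77166548), the multiplexin of vascular basement membranes from which endostatin is cut, was at 2.18, 6.21 and 2.78 CPM in Il-17ra-Cre, 0.582, 0.761 and 0.843 in Il-17rb-Cre and 7.49, 4.83, 6.49 and 1.76 in Il-17rc-Cre. It was lower in all Il-17rb-Cre libraries than in any other, with log2 fold changes of -2.35 ± 0.58 (edgeR adjusted p = 0.00918) and -2.81 ± 0.57 (0.00336). The other multiplexin, Col15a1, was at or below 0.484 CPM in every library and did not pass. Among transmembrane collagens, Col23a1 (ENSMUSG00000063564, chr11:51289920-51583918) was at 4.58, 5.86 and 3.07 CPM in Il-17ra-Cre, 1.78, 1.28 and 0.429 in Il-17rb-Cre and 7.72, 4.04, 5.89 and 4.38 in Il-17rc-Cre. Its Il-17rb-Cre libraries were below all others (-1.95 ± 0.51, edgeR adjusted p = 0.0126, and -2.24 ± 0.50, 0.00562). Col25a1, a neuronal transmembrane collagen found in amyloid plaques, was at 0.377, 3.16 and 2.401 CPM in Il-17ra-Cre, 6.98, 3.83 and 2.93 in Il-17rb-Cre and 3.601, 2.17, 3.59 and 2.62 in Il-17rc-Cre, with overlap between lines and no call (edgeR adjusted p = 0.1601 and 0.438). Col13a1, a collagen of the neuromuscular junction, did not pass.

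Collagen VI, which forms beaded filaments beside basement membranes, was the class with 6 genes tested and none called in either comparison. Of all genes, 24.4% and 21.9% were lower and 16.4% and 17.7% higher. Col6a1 (ENSMUSG00000001119, chr10:76708792-76726168) was at 2.16, 4.91 and 1.22 CPM in Il-17ra-Cre, 1.35, 4.88 and 3.07 in Il-17rb-Cre and 1.87, 2.99, 2.095 and 4.38 in Il-17rc-Cre, and Col6a2 at 0.917, 2.73 and 1.69 CPM in Il-17ra-Cre, 3.72, 2.603 and 4.103 in Il-17rb-Cre and 2.696, 5.26, 2.35 and 6.56 in Il-17rc-Cre. The lines overlapped in both genes. Col6a1 had log2 fold changes of 0.18 ± 0.61 and 0.13 ± 0.57 (edgeR adjusted p = 0.843 and 0.875) and Col6a2 of 0.96 ± 0.51 and -0.28 ± 0.47 (0.157 and 0.669). Col6a4, a minor chain, was named after its values were seen. It was at 1.24, 0.934 and 0.843 CPM in Il-17rb-Cre, 0.243, 0 and 0.129 in Il-17ra-Cre and 0.597, 0.0968, 0.601 and 0 in Il-17rc-Cre, with every Il-17rb-Cre library above every other. It rested on 195 reads in the Il-17rb-Cre line and did not pass (edgeR adjusted p = 0.127 and 0.325). The remaining Col6a3, Col6a5 and Col6a6 were at or below 1.58 CPM in every library.

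Of the other collagens, Col7a1, of the anchoring fibrils of skin, had 0 counts in all Il-17rb-Cre libraries. It was at 0.0539, 0.584 and 0.246 CPM in Il-17ra-Cre and 0.123, 1.19, 0.0534 and 0.255 in Il-17rc-Cre, so it was low in every line. It was at least 19.5-fold lower than in Il-17ra-Cre (edgeR adjusted p = 0.0182) and at least 26.8-fold lower than in Il-17rc-Cre (0.0141). These bounds were 9.903-fold without Il-17ra-Cre replicate 2 and 9.51-fold without Il-17rc-Cre replicate 2. Col8a1, a short-chain collagen of vessel walls, was at 0.0809, 2.203 and 3.26 CPM in Il-17ra-Cre, 1.78, 4.92 and 4.12 in Il-17rb-Cre and 2.61, 5.58, 0.814 and 2.25 in Il-17rc-Cre, and Col26a1 at 1.402, 2.15 and 0.943 CPM in Il-17ra-Cre, 1.71, 2.896 and 2.63 in Il-17rb-Cre and 2.59, 1.84, 1.19 and 1.84 in Il-17rc-Cre. Both overlapped between lines and neither passed (edgeR adjusted p = 0.469 and 0.781 for Col8a1, 0.239 and 0.501 for Col26a1). Col8a2 and Col28a1 stayed at or below 1.11 CPM and did not pass.

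Between Il-17ra-Cre and Il-17rc-Cre libraries, no chain gene passed the edgeR test. Of the 51 genes, 0 were higher and 0 lower, where 1.38% of all genes were higher and 0.798% lower, and 7 had an unadjusted p below 0.05. Of all genes called there, 63.4% were higher, or 48.9% with DESeq2's size factors. DESeq2 called 3 higher and 1 lower, against 4.82% and 5.53% of all genes in that fit. With limma voom and quality weights 4 were higher and 1 lower, against 13.4% and 9.18% of all genes. The median log2 fold change was -0.27, against 0.03 over all genes. The 7 genes were Col20a1, Col16a1, Lama2 and Col11a1 with higher values in Il-17ra-Cre, and Lamc3, Col4a2 and Col6a2 with lower values. Col20a1 differed by 3.61 ± 0.82 on the log2 scale (edgeR adjusted p = 0.0528), which passed without Il-17ra-Cre replicate 3 (0.0114) or Il-17rc-Cre replicate 2 (0.03405, 4.39). Lama2 was at 2.37 ± 0.71 (0.106), and passed without Il-17ra-Cre replicate 3 (0.00643) but was at 1.00 without replicate 1. Col16a1 was at 1.37 ± 0.45 (0.138), at 0.44 without Il-17ra-Cre replicate 2, and passed without replicate 3 (0.0499). Lamc3 was at -2.40 ± 0.87 (edgeR adjusted p = 0.172), with Il-17rc-Cre libraries all higher. Col11a1 was at 2.91 ± 1.21 (0.231), at 2.00 without Il-17ra-Cre replicate 3 and 3.66 without Il-17rc-Cre replicate 4. Col4a2 was at -0.94 ± 0.39 (0.227) and Col6a2 at -1.24 ± 0.49 (0.208).

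Ranked per length within a line, the order of the genes also differed. In Il-17ra-Cre, Col9a3 led with 9.61 ± 5.81 CPM per kilobase (mean ± SD), followed by Col20a1 at 3.42 ± 2.37, Col16a1 at 3.26 ± 2.596 and Lamb2 at 2.73 ± 1.87, whose spreads overlap. In Il-17rc-Cre the first were Col9a3 at 7.17 ± 2.97, Lamb2 at 4.16 ± 1.62, Col4a1 at 3.62 ± 2.36 and Lamc1 at 2.14 ± 0.911. In Il-17rb-Cre, Col9a2 led with 3.44 ± 0.702, and Col4a2 at 0.743 ± 0.0986 and Col6a1 at 0.708 ± 0.403, the next 2, were not apart from each other beyond their spread. Col9a3 was at 0.281 ± 0.187 CPM per kilobase there.

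The genes that fold, modify, bind and cut these chains were counted from lists chosen with earlier results of these data known. The counts are descriptions and not independent support. Of 29 genes of collagen synthesis and crosslinking, 28 were tested. Among them, 17 were lower in Il-17rb-Cre than in Il-17ra-Cre and 16 lower than in Il-17rc-Cre, with 0 higher in either (medians -2.05 and -1.71). Over all genes, 24.4% and 21.9% were lower and 16.4% and 17.7% higher, with medians of -0.09 and 0.02. Serpinh1, the collagen chaperone Hsp47, was at 1.16, 1.44 and 2.67 CPM in Il-17rb-Cre, 39.7, 46.7 and 62.8 in Il-17ra-Cre and 66.2, 102, 98.98 and 104 in Il-17rc-Cre. Its Il-17rb-Cre libraries did not overlap with the others, with log2 fold changes of -4.82 ± 0.36 (edgeR adjusted p = 1.37e-05) and -5.71 ± 0.37 (3.90e-06). The prolyl hydroxylase subunits P4ha1 and P4hb were lower too, at -1.16 ± 0.25 and -1.61 ± 0.24 for P4ha1 (edgeR adjusted p = 0.00436 and 5.78e-04) and -2.53 ± 0.38 and -1.34 ± 0.34 for P4hb (5.90e-04 and 0.0114).

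Of 17 basement membrane partners, all tested, 10 and 12 were lower and 2 and 2 higher against Il-17ra-Cre and Il-17rc-Cre (medians -2.52 and -2.91). The shares over all genes were 24.4% and 21.9% lower and 16.4% and 17.7% higher. Sparc, a collagen-binding glycoprotein, was at 9.42, 9.56 and 8.42 CPM in Il-17rb-Cre, 619.9, 628 and 675 in Il-17ra-Cre and 488, 1212, 634 and 696 in Il-17rc-Cre, and Vtn, vitronectin, at 1.802, 2.26 and 2.74 CPM in Il-17rb-Cre, 69.5, 54.9 and 124 in Il-17ra-Cre and 232, 595, 311 and 287 in Il-17rc-Cre. Both were lower in Il-17rb-Cre in both comparisons (edgeR adjusted p = 3.97e-06 and 1.86e-06 for Sparc, 3.30e-05 and 5.88e-06 for Vtn), and Vtn was also lower in Il-17ra-Cre than in Il-17rc-Cre (0.0384), a call lost without Il-17ra-Cre replicate 1 or 2 or Il-17rc-Cre replicate 3, where no gene of the table was called lower. Agrn, the synaptic and vascular heparan sulfate proteoglycan agrin, had log2 fold changes of 0.06 ± 0.37 and -0.00 ± 0.34 and passed neither test (0.916 and 0.999). The genes higher in both comparisons, Smoc2 and Npnt, were named after their values were seen. Smoc2, a Sparc relative, was at 2.24 ± 1.105, 9.09 ± 1.84 and 3.49 ± 2.01 CPM in Il-17ra-Cre, Il-17rb-Cre and Il-17rc-Cre, and Npnt, an integrin ligand, at 6.58 ± 3.93, 19.7 ± 6.46 and 6.66 ± 0.885.

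Of 17 collagen and laminin receptors, 16 were tested, with 12 and 11 lower and 0 and 1 higher (medians -2.85 and -3.37). Of all genes, 24.4% and 21.9% were lower and 16.4% and 17.7% higher. Ddr1, a collagen receptor kinase, was at 339 ± 174, 24.3 ± 5.19 and 190.1 ± 25.97 CPM in Il-17ra-Cre, Il-17rb-Cre and Il-17rc-Cre, the integrin subunit Itgb1 at 84.3 ± 24.2, 13.6 ± 2.45 and 91.1 ± 48.8, and the hyaluronan receptor Cd44 at 77.7 ± 20.3, 1.56 ± 0.694 and 98.9 ± 59.5. All 3 were lower in Il-17rb-Cre in both comparisons (highest edgeR adjusted p = 9.96e-04, for Itgb1 against Il-17ra-Cre). The receptor higher against Il-17rc-Cre was Itga11, a collagen-binding integrin named after its values were seen (3.26 ± 0.78, edgeR adjusted p = 0.00781). Of 15 metalloproteinases and inhibitors, 13 were tested, with 6 and 7 lower and 1 and 1 higher (medians -1.34 and -1.93), beside the same shares over all genes. Timp1, a secreted inhibitor, was at 90.4 ± 63.3, 0.944 ± 0.479 and 125 ± 75.2 CPM, and Mmp17, a membrane-type metalloproteinase, at 68.99 ± 45.3, 277 ± 66.8 and 75.7 ± 8.24. Mmp17 was higher in Il-17rb-Cre in both comparisons (edgeR adjusted p = 0.00414 and 0.00356), and Timp2 lower against Il-17ra-Cre alone (0.0151 and 0.09896). Between Il-17ra-Cre and Il-17rc-Cre, 1 basement membrane partner and 1 receptor passed, both lower in Il-17ra-Cre, where 0.798% of all genes were lower. Neither passed when Il-17ra-Cre replicate 1 or 2 or Il-17rc-Cre replicate 3 was left out.

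Promoter sequence from RefSeq (build GRCm38.p6), from 250 bases before to 50 after each start, was at hand for 40 of the 55 genes. A GC box (GGGCGG) was present in 25 of the 40 (62.5%), against 38.2% of 27025 genes with such a window. A CCAAT box was in 14 (35%) against 41.1%, and a TATA box (TATAAA) in 5 (12.5%) against 15.7%. Col4a1, Col4a2, Col4a5 and Col4a6 were among those with a GC box, as was Col9a2. In Col4a5 and Col9a2 the match lies in the window but outside the bases printed here. A match of letters describes the window only.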

How the data were processed

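Ribosome-bound RNA was sequenced in 10 libraries. The deposited values are raw read counts per gene, made by the authors with STAR 2.7.5c on GRCm38, per the submitters' processing notes. How reads were counted, with which annotation and strand setting, is not given in the sources used here, so overlapping genes cannot be separated. Gene symbols, positions and exon lengths came from GENCODE M21 by Ensembl identifier. The 55 genes and all lists were chosen with earlier results of these data known.

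Counts of all 10 libraries were fitted together in edgeR 4.0.16 (R 4.3.3), with TMM scaling, a filter on low counts by group and the quasi-likelihood F test. The p-values were adjusted by the Benjamini-Hochberg method over all 20301 genes tested, with calls at 0.05. The SE of a log2 fold change was taken as its absolute value divided by the square root of F. It is an approximation and need not be symmetric where a line had few reads. CPM are TMM-scaled. Library depth was 39692925 to 165844244 counts. Per-library values were given for up to 4 genes per class with the highest mean, if at least 1 CPM, for up to 5 per comparison and direction with the largest fold change among those called, and for chain partners. From other lists the 3 (pathway) or 2 (marker) highest genes were named. Alternatives were DESeq2 1.42.0, limma 3.58.1 voom with quality weights, other scalings and filters, replicate blocks and left-out libraries. A chain gene and a marker, counted in the totals, are not reported here. The code was tested on simulated data.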

Additional observations from a re-analysis of the deposited data

Results flagged for a closer look

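In Il-17rc-Cre, the line with 4 libraries, 4 of 31 series of values had 1 library far from the other 3 by Dixon's test, which chance does in about 1 series in 20. Replicate 2 was high in Col4a1, at 53.3 CPM against 15.62 to 21.02 in the others, and in Col1a2, at 14.2 against 8.06 to 8.86. The summed level of the 55 genes was 354.5 CPM in replicate 2 and 195.4 to 199.8 in the others. Replicate 4 was low in Col11a2, at 0.425 CPM against 2.84 to 3.33.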

How the results depend on the processing

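Of the 19 calls against Il-17ra-Cre, 4 were kept under every alternative that gave the gene an adjusted p (Col16a1, Col9a3, Col4a4 and Col5a2). Of the 19 against Il-17rc-Cre, 12 were. Col4a4 in both comparisons and Col5a2 against Il-17ra-Cre had an adjusted p under 21 of 22 alternatives, so the remaining alternative gave no call. The 18 lower genes against Il-17ra-Cre numbered 15 to 19 when 1 library was left out, where 19% to 26.1% of all genes were lower. They numbered 14 in the fit of these 2 lines alone, where 22.7% of all genes were lower. Most of these calls were lost without Il-17ra-Cre replicates 1 and 2, where the lone library is assumed to vary like the other lines. The 18 against Il-17rc-Cre numbered 14 to 19 when 1 library was left out, where 17.5% to 23.1% of all genes were lower. In the fit of those 2 lines alone they numbered 18, where 27.2% of all genes were lower. The 1 higher gene against Il-17ra-Cre became 0 without the filter and without Il-17ra-Cre replicates 1 and 2, 2 without Il-17rc-Cre replicates 2 and 4, and 0 to 1 with 1 library left out. Against Il-17rc-Cre it became 2 without Il-17rc-Cre replicates 2 and 4. That omission was chosen after seeing the data. Between Il-17ra-Cre and Il-17rc-Cre, the 0 higher genes became 3 with DESeq2, 4 with voom, 1 without the filter, 1 with a filter at 1 CPM, 2 without Il-17rc-Cre replicates 2 and 4, and 0 to 3 with 1 library left out, and the 0 lower became 1 with DESeq2 and 1 with voom. Lama2 there was at -0.60 without Il-17ra-Cre replicates 1 and 2. The cause of these changes was not tested. Over all genes, this comparison called 281 higher and 162 lower, but 978 and 1123 with DESeq2, 2716 and 1863 with voom, 0 to 1541 and 0 to 1345 with 1 library left out, highest without Il-17ra-Cre replicate 3 and 0 and 0 without Il-17ra-Cre replicate 1 or 2 or Il-17rc-Cre replicate 3, and 0 and 1 when fitted without the Il-17rb-Cre libraries. DESeq2 gave no adjusted p for Col1a2 in both Il-17rb-Cre comparisons. Upper-quartile scaling shifted the median of all genes by 0.13 and 0.10. With the longest transcript as the length, 6 ratio values moved by more than the spread and 21 did not.

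Whether the replicate numbers pair the libraries could not be decided. By title, 2 of 9 pairs had a correlation over 0.1 (-0.083 to 0.181), and 5 of 10 libraries correlated best with their own number. No reference value for unpaired libraries was computed, so a shared batch was not tested. With the title number as a replicate block, 2 genes were higher and 18 lower against Il-17ra-Cre, 1 and 16 against Il-17rc-Cre, and 0 and 0 between Il-17ra-Cre and Il-17rc-Cre, where the blocks left 0 and 2 or 0 and 1 of all genes. With the library-name number as a block these were 1 and 16, 1 and 18, and 0 and 0.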
